A study of Mus musculus with 6 samples.

Results

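The genes of retinoid binding and response described here were 8 genes taken by symbol: the intracellular carriers Crabp1 and Crabp2, the uptake receptor Stra6, the oxidising enzymes Dhrs9 and Aldh1a3, and the nuclear receptors Rarg, Rara and Rxra. Each symbol matched 1 row among 55481 in the table of expression values, and 7 of the 8 passed the filter on low values that 13474 genes passed. The values came from bulk polyA RNA sequencing of cells sorted from mouse skin squamous cell carcinomas that had been raised with the mutagen DMBA and the promoter TPA. The first population, Itga6hi CD80pos, was high in integrin alpha 6 (Itga6) and positive for the co-stimulatory molecule CD80, and the study calls it tumour stem-like. The other had low Itga6 and no CD80 (Itga6low CD80neg), and the study calls it differentiated cancer cells. Each had 2 libraries, numbered replicate 1 and replicate 2. Mouse strain, age and genotype, the gates beyond these 2 markers, and whether replicates were separate animals are not given in the sources used here. The p-values therefore measure the spread between these libraries, which may be technical. A further population, Itga6 high and CD80 negative with 2 libraries, was not analysed here.

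Retinoids are derivatives of vitamin A. Retinol enters cells, in some tissues through the receptor Stra6, is oxidised to retinal by dehydrogenases such as Dhrs9, and retinal is oxidised to retinoic acid by the Aldh1a enzymes. Retinoic acid is bound in the cytosol by Crabp1 and Crabp2, of which Crabp2 is known for passing it to nuclear receptors. The receptors work as pairs of a retinoic acid receptor (Rara, Rarb, Rarg) with a retinoid X receptor (Rxra, Rxrb, Rxrg), and in epidermis Rarg and Rxra are the main forms. Retinoids are long known to restrain keratinocyte differentiation and to act on skin tumours raised with phorbol esters.

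The 2 carriers had opposite patterns on the deposited values, though only the Crabp1 call held under the other scalings described below. Crabp1 was almost confined to the Itga6low CD80neg libraries, while Crabp2, Rarg and Rxra stood higher in the Itga6hi CD80pos libraries on the deposited values. Values are TPM (length-scaled relative abundance), which are corrected for transcript length and add up to 1000000 in each library, so levels of different genes can be compared within a library. They hold no read counts, so the depth is unknown and no detection limit can be given. Of the 7 tested genes, limma called 3 higher and 1 lower in Itga6hi CD80pos at an adjusted p under 0.05, while over all tested genes 57.0% were called higher and 9.48% lower. The count of higher genes was thus near the background. The median log2 fold change of the 7 was 1.01, against 1.27 for all tested genes. Here and below a log2 fold change is Itga6hi CD80pos over Itga6low CD80neg on the log2(TPM + 1) scale.

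**Figure D1:**
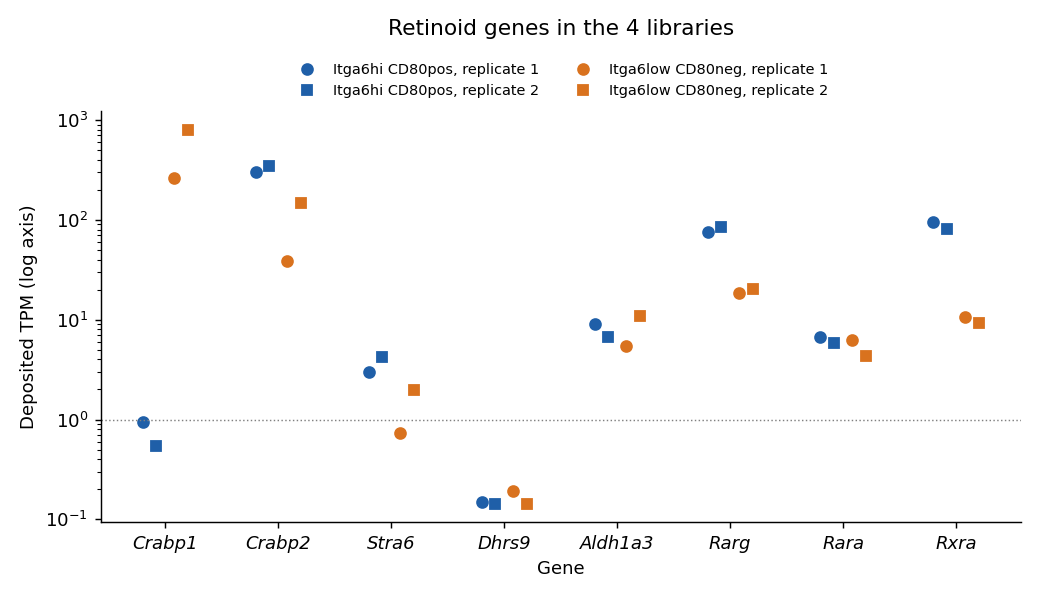
Deposited TPM (log axis) of the 8 retinoid genes in each of the 4 libraries; colours mark the populations, circles replicate 1 and squares replicate 2, and the dotted line is 1 TPM. Crabp1 lies under 1 TPM in both Itga6hi CD80pos libraries and at 261 and 801 TPM in the Itga6low CD80neg libraries, and Dhrs9 lies under 0.2 TPM in all 4.

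The shift of all genes has a measured counterpart. Of all TPM in Itga6low CD80neg, haemoglobin genes held 70.9% and 50.4%, and in Itga6hi CD80pos 0.0185% and 0.00621%, which leaves less of the fixed total for every other gene. Under median-of-ratios scaling the median of all tested genes moved from 1.27 to -0.01, under quantile normalization to 0.27, and with haemoglobin genes left out of the total to 0.16. A call is described below as kept when it held on the deposited TPM and under each of these 3 scalings, as it did for 5.66% of tested genes in the higher and 8.27% in the lower direction. Of the retinoid genes, Crabp1 was kept as lower and Rxra as higher. Taken singly, median-of-ratios scaling called 1 of the 7 higher and 2 lower, against 6.23% and 13.6% of all tested genes. Quantile normalization called 1 higher and 1 lower, against 10.7% and 11.3%, and the total without haemoglobin genes 1 and 1, against 7.72% and 10.8%. The marker genes of the populations also differed. The summed TPM of 8 basal keratinocyte markers was 42761 and 43862 in Itga6hi CD80pos against 1562 and 4323 in Itga6low CD80neg, and the sum of 10 fibroblast markers was 92.1 and 69.8 against 9363 and 5869. Among 9 suprabasal keratinocyte markers, the genes of differentiated epidermis, 3 were called higher and 1 lower in Itga6hi CD80pos. These calls and those of the lists that follow were made on the deposited TPM, where the background was 57.0% higher and 9.48% lower. For the suprabasal list, 3 of 9 was no excess of higher calls. Its median on the log2 scale was 1.05, compared with the 1.27 given above. Proliferation markers were called higher in 8 of 8, red blood cell markers lower in 7 of 7, endothelial and pericyte markers higher in 1 and lower in 3 of 6 tested, myeloid markers lower in 2 of 6, and hair follicle and sebaceous markers higher in 3 and lower in 3 of 9. Both tested muscle and adipocyte markers were lower, and no lymphoid marker was tested. Of the Langerhans and dendritic cell list only Epcam was tested, and it was higher, at 56.1 and 96.2 TPM versus 2.18 and 5.67 TPM. It does not stand for that list: Cd207 was listed at 0 and 0.0223 TPM versus 0 and 0 TPM. Itgax was listed at 0 and 0.0229 TPM versus 0.320 and 1.12 TPM. In bulk RNA, fewer cells of a type and less RNA per cell cannot be told apart. Itga6 stood at 178 and 339 TPM versus 1.496 and 1.652 TPM and Cd80 at 6.24 and 1.89 TPM versus 0.642 and 0.563 TPM, both in the direction of the sort. The Itga6 call was kept and the Cd80 call was not. With haemoglobin genes left out of the total, the Cd80 groups overlapped, at 6.24 and 1.89 TPM versus 2.21 and 1.135 TPM.

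Crabp1 (chromosome 9, 54764748 to 54773110, plus strand, GRCm38) binds retinoic acid in the cytosol. It stood at 0.935 and 0.539 TPM in Itga6hi CD80pos and at 261 and 801 TPM in Itga6low CD80neg. The groups did not overlap, and the 2 Itga6low CD80neg libraries differed from each other by a factor of 3.06. The means were 0.737 ± 0.280 TPM and 531 ± 381 TPM (SD, n = 2), a factor of 720. On the log2 scale Crabp1 fell by 8.05 ± 0.59 (SE), with limma's adjusted p = 0.00257, and 0.111% of tested genes had a lower fold change. The size depends on the pseudocount, since the Itga6hi CD80pos values lie under 1 TPM: it was -9.14 with a pseudocount of 0.1 and -6.34 with 5. The call was kept, at -9.11 after median-of-ratios scaling and at -9.45 when haemoglobin genes were left out, and the adjusted p over the 4 scalings was at most 0.00348. Without Itga6hi CD80pos replicate 1 the call was lost (adjusted p = 0.0508), as it was for every gene of the table.

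Crabp1 and Rxra are the members whose calls held under every scaling, so the bases before their start sites are shown here for reference. These are the 250 bases upstream of the RefSeq starts in GRCm38.p6, on the gene's own strand. RefSeq has a single start for Crabp1 and 2 for Rxra in the table used. Capitals in the first pair mark GGGCGG, the GC box bound by Sp1-type factors, on either strand. In the last sequence they mark AGGTCA, the hexamer that retinoid receptors bind, and its relatives AGTTCA as well as GGGTCA, all searched on either strand and found without overlap.
Crabp1, chr9:54764498-54764747, plus strand: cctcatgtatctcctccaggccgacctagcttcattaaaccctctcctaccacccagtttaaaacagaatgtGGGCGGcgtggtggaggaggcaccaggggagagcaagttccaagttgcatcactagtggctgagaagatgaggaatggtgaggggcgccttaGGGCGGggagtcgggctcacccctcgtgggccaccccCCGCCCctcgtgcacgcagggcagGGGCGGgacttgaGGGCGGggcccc
Rxra first start, chr2:27676951-27677200, plus strand: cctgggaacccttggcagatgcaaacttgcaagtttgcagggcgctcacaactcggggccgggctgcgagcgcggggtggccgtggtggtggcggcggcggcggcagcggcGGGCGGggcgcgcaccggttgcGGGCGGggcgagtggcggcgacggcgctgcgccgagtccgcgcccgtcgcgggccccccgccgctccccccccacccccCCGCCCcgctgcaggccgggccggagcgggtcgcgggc
Rxra second start, chr2:27709042-27709291, plus strand: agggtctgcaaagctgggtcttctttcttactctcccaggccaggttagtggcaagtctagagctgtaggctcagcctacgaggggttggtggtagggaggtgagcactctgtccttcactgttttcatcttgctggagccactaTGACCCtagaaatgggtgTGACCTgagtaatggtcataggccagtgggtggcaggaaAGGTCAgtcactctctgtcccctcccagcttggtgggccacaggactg
Both Rxra windows lie inside the GENCODE gene, which begins farther upstream. The Crabp1 window held 5 GC boxes and none of the 3 hexamers, and 63.6% of its bases were G or C. The first Rxra window held 3 GC boxes, none of the hexamers and 81.2% G or C. The second held no GC box and 3 hexamers, 105, 87 and 48 bases before the start. Of 32851 upstream windows of the same length over all genes, 32.7% held a GC box and 32.9% at least 1 of the hexamers, so either is common. Of the 8 genes, 6 had a window in the table, 14 windows in all, of which 10 held a GC box and 4 a hexamer. These windows are not independent. The Rara windows chr11:98937446-98937695 and chr11:98937468-98937717 overlap over most of their length and hold the same GC boxes. Direct repeats spaced by 1, 2 or 5 bases (DR1, DR2 and DR5) were searched with a broader hexamer, [AG]G[GT]T[CG]A, which takes in the 3 above. They were in none of the 14 windows and in 0.487%, 0.344% and 0.262% of all windows. A match is a description of letters, and elements lying farther away were not searched.

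Crabp2 (chromosome 3, 87948666 to 87953376, plus strand), the carrier that hands retinoic acid to its receptors, was the most abundant of the 8 in Itga6hi CD80pos. It stood at 299.6 and 346 TPM there and at 38.3 and 146 TPM in Itga6low CD80neg. The groups did not overlap, but the Itga6low CD80neg libraries differed by a factor of 3.82, more than for any other of the 8. The log2 fold change was 2.09 ± 0.71 (SE) with limma's adjusted p = 0.0456, close to the threshold. It was 0.52 under median-of-ratios scaling (adjusted p = 0.540), 0.81 under quantile normalization (0.262) and 0.70 without haemoglobin genes (0.303), so the call was not kept. With haemoglobin genes left out of the total, Crabp2 stood at 299.7 and 346 TPM versus 132 and 295 TPM. It was also lost with a pseudocount of 0.1 (0.0510), with no filter on low values (0.140) and without either Itga6hi CD80pos library (0.192 and 0.215).

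The ratio of the 2 carriers within a library does not depend on the total, so it is the same when a whole library is multiplied by a common factor. Quantile normalization is not of that kind, and the shares were taken on the deposited TPM. Crabp2 made up 99.7% and 99.8% of the TPM of both carriers together in Itga6hi CD80pos, and 12.8% and 15.5% in the Itga6low CD80neg libraries. Crabp1 exceeded Crabp2 by factors of 6.82 and 5.47 in the latter, while Crabp2 exceeded Crabp1 by factors of 321 and 641 in the former. The shares were 99.8 ± 0.110% and 14.1 ± 1.89% (SD, n = 2), a difference of 85.7 percentage points against a spread within groups of under 2. The share thus varied little between the Itga6low CD80neg libraries, although each gene differed there by more than 3-fold. With 2 libraries on each side, the smallest p of an exact two-sided permutation test is 0.3333, which was the value for this share and for each of the shares below.

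**Figure D2:**
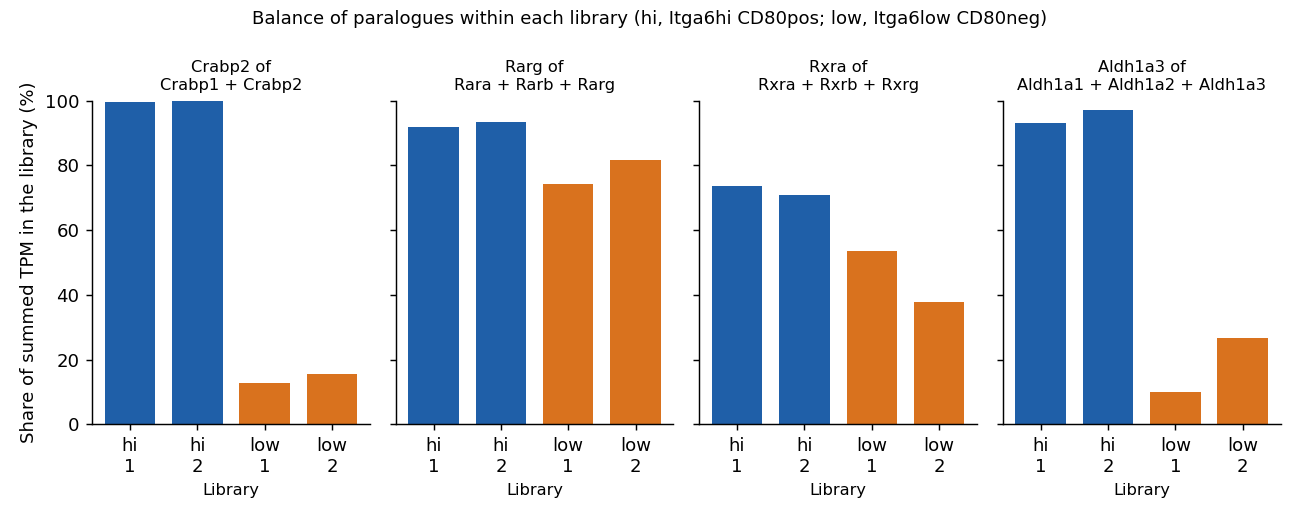
Share of the first gene named in the summed TPM of its paralogues within each library (y axis, percent), for the carriers, the retinoic acid receptors, the retinoid X receptors and the Aldh1a enzymes. Bars are single libraries. Crabp2 takes 99.7% and 99.8% of the carrier TPM in Itga6hi CD80pos and 12.8% and 15.5% in Itga6low CD80neg.

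The difference between the Itga6low CD80neg libraries was set beside the markers of other cells. Crabp1 was 3.06 times and Crabp2 3.82 times as high in replicate 2 as in replicate 1, while the TPM outside haemoglobin genes was 1.71 times as high. Summed basal keratinocyte markers were 2.77 times, suprabasal ones 2.72 times and melanocyte and Schwann cell markers 4.17 times as high in replicate 2. In these lists 5 of 8, 7 of 9 and 6 of 8 genes were higher there. The basal sum was mostly Krt14, at 1244 TPM in replicate 1 and 4000.5 TPM in replicate 2. Krt5, Col17a1 and Lamb3 were at 0.983, 0.927 and 0.826 times. Myeloid markers, of which S100a9 had the highest TPM, were 4.36 times as high. That sum was nearly all S100a8 and S100a9, at 219 and 363 TPM in replicate 1 and 990 and 1588 TPM in replicate 2. Both were also abundant in Itga6hi CD80pos, S100a9 at 610.5 and 409.5 TPM, where the leukocyte gene Ptprc stood at 0.0659 and 0.0400 TPM. The ratio therefore says little of myeloid cells. Langerhans and dendritic ones were at 2.61 times and lymphoid ones at 2.34 times. The first sum was mostly Epcam, at 2.18 and 5.67 TPM of 2.875 and 7.51 TPM. The second was only 1.765 and 4.13 TPM over 9 untested genes. Fibroblast markers went the other way, at 0.627 times, with 2 of 10 genes higher in replicate 2, and markers of the dermal papilla and papillary dermis, where Crabp1 is known to be expressed, were at 0.610 times. Muscle and adipocyte markers were at 0.371 times. Between the populations, 9 of 10 fibroblast markers, 7 of 8 tested dermal papilla and papillary fibroblast markers and 4 of 4 tested melanocyte and Schwann cell markers were called lower in Itga6hi CD80pos, as Crabp1 was. Over all tested genes 9.48% were called lower. The most abundant markers were Col3a1, a fibrillar collagen, at 2.22 and 2.56 TPM versus 2964 and 2123 TPM, and Dct, a melanin enzyme, at 0.245 and 0.427 TPM versus 14.9 and 53.3 TPM. Of the 10 dermal papilla and papillary markers, Hhip was listed at 0 in Itga6hi CD80pos replicate 1 and Rspo3 in replicate 2, and Vcan, a matrix proteoglycan with the highest single value of the list, stood at 2.45 and 1.12 TPM versus 33.2 and 14.9 TPM. Apcdd1, an inhibitor of Wnt signalling named after its values were seen because it exceeded Vcan in 3 of the 4 libraries, differed less, at 9.18 and 8.28 TPM versus 32.4 and 26.2 TPM. The part of these cells in the Crabp1 result was not tested.

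**Figure D3:**
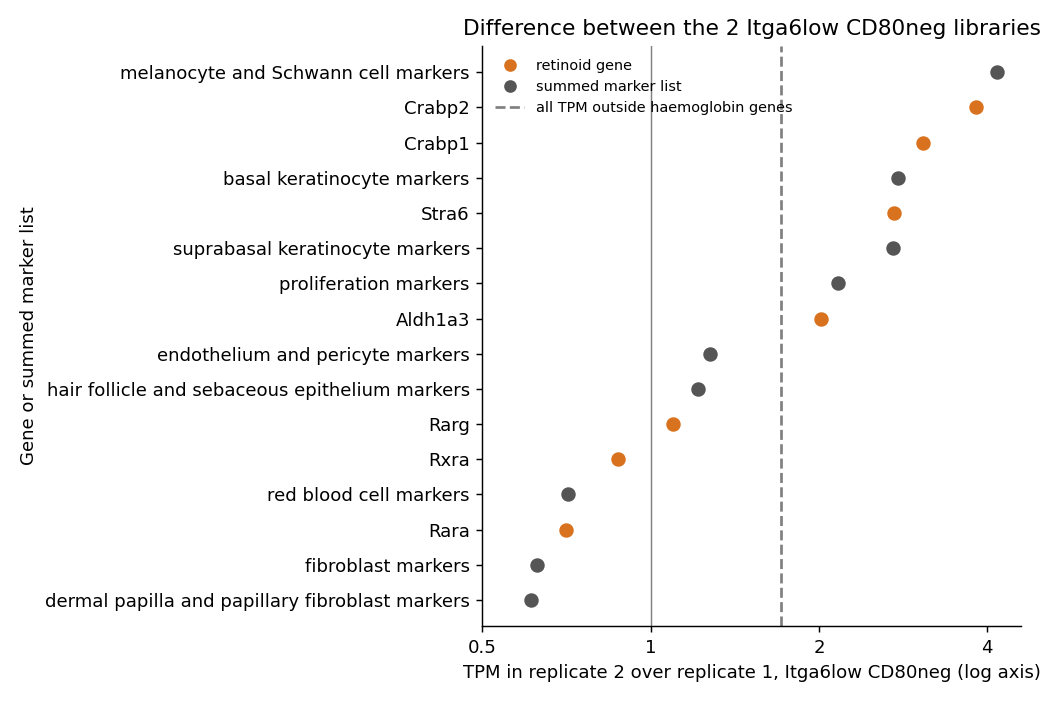
TPM in replicate 2 over replicate 1 of the Itga6low CD80neg population (x axis, log scale) for the 7 tested retinoid genes and for a choice of summed marker lists. The dashed line is the ratio of all TPM outside haemoglobin genes, 1.71. The myeloid, Langerhans and dendritic, lymphoid, and muscle and adipocyte lists are not drawn. Crabp1, Crabp2, Stra6 and Aldh1a3 lie to the right of that line with the keratinocyte, melanocyte and proliferation lists, and Rarg, Rxra and Rara lie to its left. The basal keratinocyte sum is mostly Krt14.

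Stra6 (chromosome 9, 58063788 to 58153996, plus strand), the membrane receptor that takes up retinol from its plasma carrier, was scarce. It stood at 2.99 and 4.27 TPM in Itga6hi CD80pos and at 0.730 and 1.99 TPM in Itga6low CD80neg. The groups did not overlap. The log2 fold change was 1.01 ± 0.38 (SE), under the median of all genes, and limma's adjusted p was 0.0592. The value was -0.02 under median-of-ratios scaling, 0.42 under quantile normalization and 0.13 without haemoglobin genes, with no call. Stra6 was called higher without Itga6low CD80neg replicate 2 (1.41, adjusted p = 0.0336) and with the replicate number as a block (0.0197). The annotation places Ccdc33 on the opposite strand across part of Stra6, and Ccdc33 was listed at no more than 0.246 TPM in any library.

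The enzymes were weakly expressed. Dhrs9 (chromosome 2, 69380445 to 69404533, plus strand), a retinol dehydrogenase, stood at 0.148 and 0.144 TPM versus 0.191 and 0.144 TPM and was not tested, being under the filter in all 4 libraries. Aldh1a3 (chromosome 7, 66390890 to 66427517, minus strand), which makes retinoic acid from retinal, stood at 9.03 and 6.64 TPM versus 5.402 and 10.9 TPM. Its groups overlapped, and the log2 fold change was 0.00 ± 0.41 (SE) on the deposited TPM (limma's adjusted p = 0.993). Relative to other genes it stood lower: the value was -1.38 ± 0.32 (SE) under median-of-ratios scaling, where it was called lower (adjusted p = 0.0463), -1.11 under quantile normalization (0.0835) and -1.28 without haemoglobin genes (0.0611). With haemoglobin genes left out of the total it stood at 9.03 and 6.64 TPM versus 18.6 and 21.95 TPM, with no overlap.

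Aldh1a3 nevertheless made up most of the Aldh1a family's TPM in Itga6hi CD80pos. Its share of Aldh1a1, Aldh1a2 and Aldh1a3 was 93.1% and 97.2% there and 9.95% and 26.75% in Itga6low CD80neg. The other side of that balance was Aldh1a1, which also makes retinoic acid. It stood at 0.467 and 0.0944 TPM versus 46.2 and 29.6 TPM, so that the log2 fold change was -4.91 ± 0.36 (SE, limma's adjusted p = 0.00257), and was kept. The family's summed TPM was 9.70 and 6.83 against 54.3 and 40.7.

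Rxra (chromosome 2, 27676440 to 27762957, plus strand), the partner receptor that retinoic acid, vitamin D and fatty acid receptors share, had the highest fold change of the 8. It stood at 94.8 and 80.5 TPM in Itga6hi CD80pos and at 10.5 and 9.20 TPM in Itga6low CD80neg. The groups did not overlap and each pair of libraries lay close together on the deposited TPM. With haemoglobin genes left out of the total, Rxra stood at 94.8 and 80.5 TPM versus 36.2 and 18.5 TPM. There the groups still did not overlap, but the Itga6low CD80neg pair lay farther apart. The log2 fold change was 3.03 ± 0.32 (SE) with limma's adjusted p = 0.00414, and 3.55% of tested genes had a higher one. The call was kept, at 1.51 ± 0.30 (SE) under median-of-ratios scaling (adjusted p = 0.0319), 1.66 under quantile normalization (0.0262) and 1.71 without haemoglobin genes (0.0421). It was lost without Itga6hi CD80pos replicate 1 (0.0718) and without its replicate 2 (0.0593).

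Rarg (chromosome 15, 102234938 to 102257517, minus strand), the main retinoic acid receptor of epidermis, stood at 75.1 and 84.9 TPM in Itga6hi CD80pos against 18.4 and 20.1 TPM in Itga6low CD80neg. The groups did not overlap. The log2 fold change was 2.00 ± 0.32 (SE) with limma's adjusted p = 0.00715. It was not kept: the value was 0.46 under median-of-ratios scaling (adjusted p = 0.264), 0.61 under quantile normalization (0.150) and 0.65 without haemoglobin genes (0.189), and the call was also lost without either Itga6hi CD80pos library (0.0992 and 0.0963). Rara (chromosome 11, 98927818 to 98974942, plus strand), the more broadly expressed receptor, stood at 6.66 and 5.83 TPM versus 6.19 and 4.37 TPM. Its groups overlapped, with a log2 fold change of 0.22 ± 0.31 (SE, limma's adjusted p = 0.548) that turned to -1.12 under median-of-ratios scaling (0.112), -0.86 under quantile normalization (0.149) and -1.03 without haemoglobin genes (0.216).

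The receptor families also differed in balance within libraries. Rarg made up 91.8% and 93.5% of the summed Rara, Rarb and Rarg TPM in Itga6hi CD80pos, and 74.2% and 81.7% in Itga6low CD80neg. Rxra made up 73.5% and 71.0% of the summed Rxra, Rxrb and Rxrg TPM versus 53.6% and 37.7%. Neither share overlapped between the populations. The mean difference was 14.7 percentage points for Rarg and 26.6 for Rxra, and the largest SD within a group was 5.28 and 11.2 percentage points. Rarb, a retinoic acid receptor that retinoic acid itself is known to induce, lay under 0.2 TPM in all 4 libraries and was not tested.

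**Figure D4:**
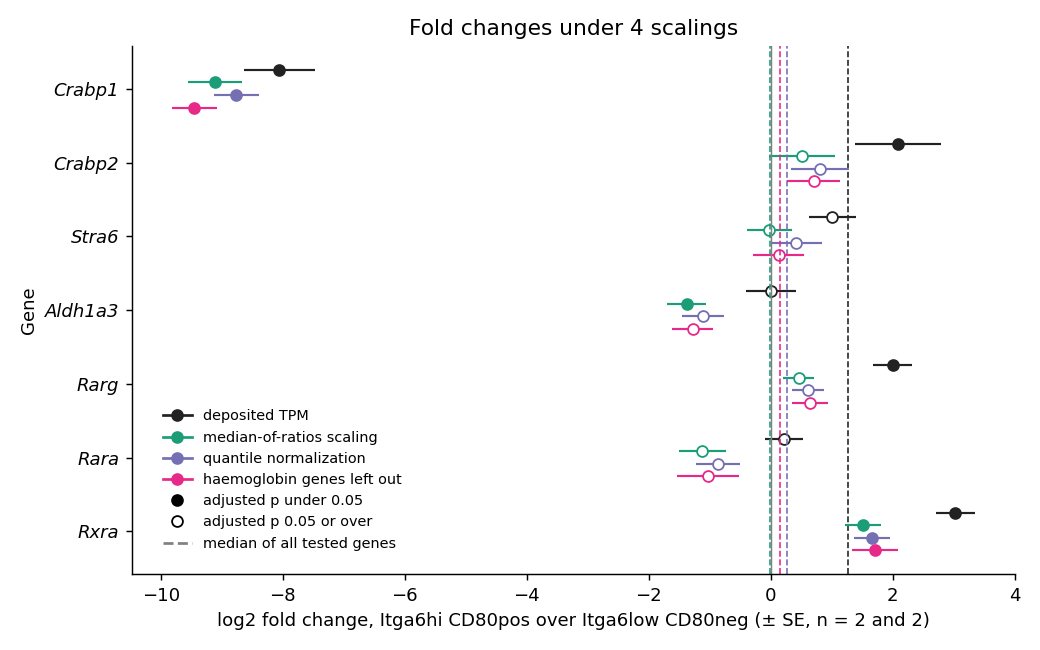
log2 fold change (x axis, ± SE) of the 7 tested retinoid genes under 4 scalings; filled points passed an adjusted p of 0.05, and dashed lines are the median of all tested genes under each scaling. Crabp1 lies from -9.45 to -8.05 and Rxra from 1.51 to 3.03 with filled points throughout, while Crabp2 and Rarg are filled on the deposited TPM and open under the 3 other scalings.

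By level, Crabp2 led the 8 genes in both Itga6hi CD80pos libraries. Rxra and Rarg followed and changed places between the libraries, so their order did not exceed the spread. Aldh1a3, Rara, Stra6, Crabp1 and Dhrs9 came next in that order in both. In Itga6low CD80neg, Crabp1 led in both libraries, followed by Crabp2 and Rarg, while Rxra, Rara and Aldh1a3 changed places and Stra6 and Dhrs9 came last. The tested genes whose profile over the 4 libraries lay nearest to that of Crabp1, by Euclidean distance between log2(TPM + 1) values centred on each gene's mean, were Ctsk (0.685), a matrix-degrading cathepsin, Apod (0.725), a lipid carrier, and Lum (0.761), a collagen-binding proteoglycan. Ctsk stood at 0.315 and 0.494 TPM versus 327 and 599.5 TPM, Apod at 0.627 and 0.270 TPM versus 399 and 736 TPM, and Lum at 0.234 and 0.0916 TPM versus 294 and 446 TPM. Lum is also 1 of the 10 fibroblast markers. All 3 were higher in replicate 2 of Itga6low CD80neg, as Crabp1 was. They were chosen by likeness over these same libraries, so this is no separate result. Their step was smaller than the factor of 3.06 of Crabp1. For Lum it was 1.52, against 1.71 for all TPM outside haemoglobin genes. Nearest to Rxra were Map7 (0.0527), which binds microtubules, Mmp15 (0.0779), a membrane metalloproteinase, and E2f7 (0.0787), a cell cycle repressor.

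Other genes of the retinoid pathway were taken from lists by role. Of 102 genes listed, 100 were in the table and 69 were tested, of which 30 were called higher and 8 lower, or 43.5% and 11.6% against 57.0% and 9.48% of all tested genes. Their median log2 fold change was 1.22, close to the 1.27 of all genes. Kept across scalings were 2 higher and 7 lower calls of the 69, while over all tested genes 5.66% and 8.27% were kept. The lists share some genes, which are counted once in these totals.

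**Figure D5:**
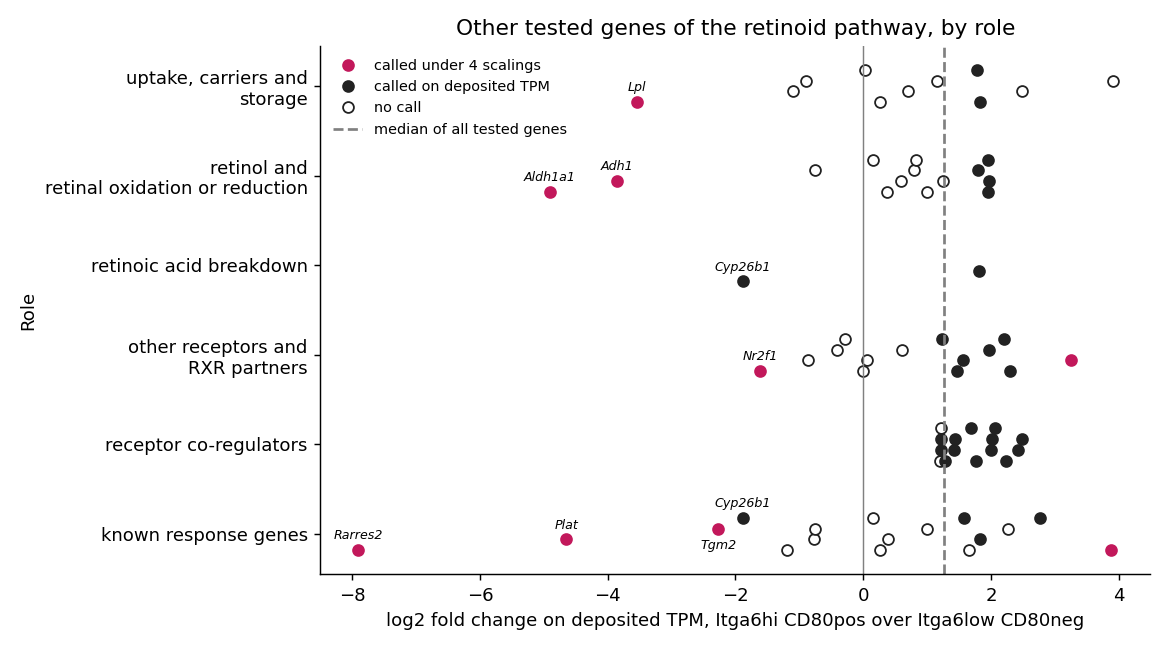
log2 fold change on the deposited TPM (x axis) of the tested genes of the retinoid pathway outside the 8, by role; pink points were called in 1 direction under 4 scalings, black points on the deposited TPM, and open points had no call. Rarres2, Aldh1a1, Plat, Adh1 and Lpl lie farthest to the left, from -7.91 to -3.54.

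Among 11 tested genes of retinoid uptake, carriage and storage, 2 were called higher and 1 lower. That is 18.2% and 9.09%, against 57.0% and 9.48% of all tested genes. Lpl, a lipase that also frees retinol from circulating esters, stood at 1.80 and 2.04 TPM versus 61.3 and 17.5 TPM (log2 fold change -3.54 ± 0.60, SE, limma's adjusted p = 0.00791) and was kept. Scarb1, a lipoprotein and carotenoid receptor, stood at 24.2 and 16.8 TPM versus 4.76 and 5.64 TPM (adjusted p = 0.00910) and was not kept. Fabp5, the fatty acid carrier that can also bind retinoic acid, was the most abundant of the list, at 14887 and 8484 TPM versus 884 and 4512 TPM, and had no call (0.118).

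Among 14 tested enzymes that interconvert retinol and retinal or oxidise retinal, 4 were called higher and 2 lower. These were 28.6% and 14.3%, against 57.0% and 9.48% of all tested genes. Both lower ones were kept: Aldh1a1, above, and Adh1, an alcohol dehydrogenase that oxidises retinol, at 0.269 and 0.433 TPM versus 25.9 and 13.2 TPM (log2 fold change -3.85 ± 0.40, SE, limma's adjusted p = 0.00405). None of the higher ones was kept, among them Rdh11, a retinal reductase, at 24.6 and 25.8 TPM versus 3.81 and 8.245 TPM (0.0116). Akr1b8, an aldo-keto reductase and the most abundant of the list, stood at 98.1 and 94.5 TPM versus 16.9 and 34.25 TPM (0.0147). Of the enzymes that break down retinoic acid, 2 of 4 were tested, and they went opposite ways. Cyp26b1 stood at 4.06 and 2.05 TPM versus 23.2 and 7.73 TPM and was called lower, with a log2 fold change of -1.89 ± 0.57 (SE, limma's adjusted p = 0.0332). The difference was larger under the other scalings, at -3.17 under median-of-ratios scaling, where it was called (0.0413), -2.92 under quantile normalization (0.0506) and -3.22 without haemoglobin genes (0.0602), where it was not. The call was lost without either Itga6hi CD80pos library (0.1205 and 0.199) and without Itga6low CD80neg replicate 1 (0.118). Cyp2s1 stood at 6.12 and 3.98 TPM versus 0.319 and 1.16 TPM and was called higher, at 1.82 (0.0117), which became 0.87 under median-of-ratios scaling (0.178), 1.30 under quantile normalization (0.0784) and 1.17 without haemoglobin genes (0.136).

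Of 14 tested receptors other than the 8 and partners of Rxra, 7 were called higher and 1 lower. The shares were 50% and 7.14%, against 57.0% and 9.48% of all tested genes. Ppard, the fatty acid receptor of keratinocytes that pairs with Rxra, stood at 90.9 and 116 TPM versus 10.8 and 9.07 TPM, with a log2 fold change of 3.25 ± 0.33 (SE, limma's adjusted p = 0.00405), and was kept. Vdr, the vitamin D receptor, at 23.5 and 27.5 TPM versus 5.24 and 3.635 TPM (0.00582), and Pparg, at 12.1 and 5.39 TPM versus 1.32 and 0.679 TPM (0.0107), were called higher and not kept. Nr4a1, an early response receptor and the most abundant of the list, had no call, at 267 and 268 TPM versus 252 and 121 TPM (0.340). Nr2f1, chosen after its values were seen as the only lower call of the list, was listed at 0 and 0.0460 TPM versus 2.34 and 1.91 TPM (0.00710) and was kept.

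Co-regulators of the receptors were called higher in 13 of 15 tested genes, against a background of 57.0%, and lower in none. Their median log2 fold change was 1.70 against 1.27 for all genes. Under median-of-ratios scaling, quantile normalization and the total without haemoglobin genes, none of the 15 was called in either direction. Tbl1xr1, a subunit of co-repressor complexes, stood at 26.8 and 15.4 TPM versus 3.25 and 2.702 TPM (limma's adjusted p = 0.00658), and Carm1, a co-activating methyltransferase, at 35.3 and 32.5 TPM versus 9.40 and 4.21 TPM (0.00952).

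Of 17 tested genes known to respond to retinoids in other settings, 4 were called higher and 4 lower, or 23.5% each against 57.0% and 9.48% of all tested genes. Kept were 1 higher and 3 lower, against 5.66% and 8.27% of all tested genes. Rarres2, which encodes the attractant chemerin and was first found as a retinoid-induced skin gene, stood at 0.106 and 0.129 TPM versus 268 and 267 TPM, so that the log2 fold change was -7.91 ± 0.29 (SE, limma's adjusted p = 0.00162), and was kept. Plat, the tissue plasminogen activator, was lower and kept, at 0.907 and 1.16 TPM versus 47.8 and 52.2 TPM (0.00189). Ccnd1, cyclin D1, which retinoids are known to lower, was higher and kept, at 119 and 134 TPM versus 9.38 and 6.295 TPM (0.00347). Cyp26a1, the response gene most used as a read-out of retinoic acid and chosen after its values were seen, was not tested. It was listed under 1 TPM throughout, at 0.0236 and 0.0370 TPM versus 0.338 and 0.608 TPM, without overlap. With haemoglobin genes left out of the total, its Itga6low CD80neg values were 1.16 and 1.225 TPM. Without Itga6hi CD80pos replicate 1 none of these calls of other pathway genes held, and without its replicate 2 there were 2 higher and 3 lower.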

How the data were processed

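Bulk RNA libraries were prepared with a low-input kit from a micro-scale RNA extraction, per the labels. The authors deposited TPM values per gene, which each sum to 1000000 per library; kallisto 0.44.0 and build mm10 are named per the submitters' processing notes, while the annotation, the summing to genes and any filter are not given in the sources used here. The deposited TPM keep no depth, so no count model, interval or limit was computed.

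Genes reaching 1 TPM in 2 or more libraries entered the test on log2(TPM + 1), with no further scaling, by limma 3.58.1 in R 4.3.3 (lmFit, eBayes with a trend), two-sided, with Benjamini-Hochberg adjustment over all 13474 tested genes and a call at an adjusted p under 0.05. The fit used the 4 libraries of the comparison and was checked on simulated data. Alternatives were pseudocounts of 0.1 and 5, no filter, a mean of at least 5 TPM, 3 other scalings, leaving out each library, and a replicate block. The members and lists were chosen with earlier results of these data known. Named genes were the 8 members, the 3 called genes of each role with the largest fold change and its most abundant gene, and the 3 nearest profiles of the members with the highest and lowest fold change; some genes that this rule names are not reported here. Gene positions are from GENCODE M21 (GRCm38) and upstream sequences from RefSeq (GRCm38.p6), whose build is that of mm10. Marker lists of endothelium, myeloid, Langerhans, lymphoid, hair follicle, muscle and red blood cells and of proliferation were also summed.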

Additional observations from a re-analysis of the deposited data

How the results depend on the processing

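On the deposited TPM 3 retinoid genes were called higher and 1 lower. The number higher was 1 under median-of-ratios scaling, 1 under quantile normalization and 1 without haemoglobin genes, and the number lower was 2 under median-of-ratios scaling, where Aldh1a3 turned to -1.38. The 30 higher and 8 lower calls of other pathway genes became 2 and 15 under median-of-ratios scaling, and the higher ones became 3 under quantile normalization, 2 without haemoglobin genes and 16 with no filter on low values. Over all genes, 7686 higher calls became 839 under median-of-ratios scaling, 1448 under quantile normalization, 1040 without haemoglobin genes and 4564 with no filter, and 1277 lower calls became 613 with a mean of at least 5 TPM, where 8821 genes were tested. The cause was not tested beyond the haemoglobin share. The corresponding splits of higher and lower calls were 839 and 1829, 1448 and 1517, and 1040 and 1460.

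Leaving out each library in turn gave from 0 to 4 retinoid genes higher and from 0 to 1 lower, from 0 to 32 other pathway genes higher and from 0 to 10 lower, and from 0 to 8227 of all genes higher and from 0 to 1237 lower. No retinoid gene was called higher without either Itga6hi CD80pos library, and the other counts of 0 came without its replicate 1. In both fits the Itga6low CD80neg pair alone measures spread and the lone library is assumed to vary like it. By limma's unadjusted p under 0.05, 2 retinoid genes were higher and 1 lower in each, and of all genes 4442 and 1033 without replicate 1 and 5016 and 1120 without replicate 2. Of 35 tested genes named by rule, 30 were called, and 30 of these calls were lost without that library and 20 without its replicate 2.

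Both populations share the replicate numbers 1 and 2, but nothing says that a number marks a shared animal or day, and with 2 pairs the deviations correlated at r = 0.109 across genes. With the replicate number as a block, limma called 4 retinoid genes higher and 1 lower, and 8044 and 1452 of all genes, with 1 residual degree of freedom and an infinite prior, so each gene's own spread was ignored. Unknown depth limits what can be said of genes under 1 TPM.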

Other observations

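Genes of retinoid uptake and storage that no comparison above named also differed between libraries of the same population. Rbp2, a retinol carrier, stood at 98.8 and 202 TPM in Itga6hi CD80pos and at 57.3 and 329.6 TPM in Itga6low CD80neg, so its groups overlapped and the fold change had no call (limma's adjusted p = 0.975). Rbp7, a related carrier, stood at 90.4 and 2.61 TPM in Itga6hi CD80pos and was listed at 0.461 and 0 TPM in Itga6low CD80neg (0.0599), the higher population resting on 1 library. Both genes were chosen after their values were seen.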
